A study of Mus musculus with 16 samples.

Results

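The comparison described here set irradiated wild-type LSK cells against irradiated wild-type myeloid progenitors (MP), 2.5 h after 5 Gy of gamma irradiation. It used 4 of the 16 arrays of a mouse study, namely the 2 arrays of the group WT LSK IR and the 2 arrays of the group WT MP IR, taken by their titles. LSK cells are the lineage-negative, Sca-1-positive, c-Kit-positive fraction of bone marrow, and MP cells are the lineage-negative, Sca-1-negative, c-Kit-positive fraction. All 8 groups came from C57BL/6J mice. The other groups used for reference were unirradiated WT LSK and WT MP cells and irradiated LSK and MP cells of Parp-2-/- mice, with 2 arrays each. Each array held RNA from a pool of at least 3 mice, so no array shows a single animal, and p-values measure the spread between pools. Sorted fractions are mixtures: in bulk RNA, fewer cells of one kind and less RNA per cell cannot be told apart.

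The LSK fraction contains haematopoietic stem cells and multipotent progenitors, which give rise to all blood lineages. The MP fraction contains the progenitors committed to granulocytes and monocytes and to erythroid and megakaryocytic cells. After gamma irradiation, the kinase ATM responds to double-strand breaks and stabilises the transcription factor p53, which induces genes for cell cycle arrest, feedback and apoptosis in both kinds of progenitor.

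Levels are RMA values read as log2 intensities, and a difference is LSK minus MP, so that a positive value is higher in LSK. A row of the array (a set of probes) was called when its adjusted p in limma, by Benjamini-Hochberg over the 22961 rows that carry a gene symbol, was under 0.05. Of 9 measured genes of the sort gate 1 was called. Kit, which encodes the c-Kit receptor used for sorting both fractions, was at 8.89 and 9.27 in the LSK pools and 8.86 and 8.86 in the MP pools, a difference of 0.22 ± 0.17 (SE; limma, adjusted p = 0.44). The lineage markers Cd3e, Cd5, Cd8a and Ly6g, and Il7r, were below the array median on all 4 arrays, as were 40.6% of all tested rows. Itgam, a myeloid lineage marker, was above the array medians in MP (5.03 and 4.81) and below them in LSK (4.56 and 4.39), and was not called (adjusted p = 0.17). The 1 call was Cd4, a lineage marker of T cells, which was higher in LSK (0.77, adjusted p = 0.044), with LSK pool 1 above its array median. Ptprc, the pan-leukocyte CD45 gene, was bright in both fractions and was not called (-0.13, adjusted p = 0.73). The Sca-1 gene was not analysed here. The array medians were 4.88 and 4.85 in LSK and 4.76 and 4.76 in MP, and the values were spread less widely in LSK (SD over rows 1.89 and 2.03, against 2.12 and 2.13). The 2 LSK pools also differed more from each other (root mean square difference 0.666) than the 2 MP pools did (0.368). These array properties moved with cell type: the median difference ran from 0.27 in the fifth of rows with the lowest levels to -0.30 in the fifth with the highest, and further quantile normalization narrowed that to 0.03 and -0.09. Their part in the results was not tested.

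Of the 22961 rows, 562 were called between irradiated LSK and MP cells, 2.45% of those tested. Of these, 132 were higher in LSK (0.575%) and 430 were lower (1.87%), and 51 and 260 of them differed by at least 2-fold. The median over all tested rows was 0.09, and a called row differed by a median of 1.05 in size. An unadjusted p under 0.05 in limma was reached by 22.9% of all rows, the share against which such counts are to be read. Lymphoid and stem cell genes led the LSK side, and granule, erythroid and monocyte genes led the MP side. The counts rest on few arrays: without LSK pool 1 there were 269 calls, without LSK pool 2 there were 2240 (1408 higher and 832 lower), and without MP pool 1 or MP pool 2 there were 10 and 15. Further quantile normalization gave 195 calls, 62 higher and 133 lower. Of the 77 named genes called here, 48 were called after it. Those not called after it included Bak1, Cd22, Cd4, Cma1, Emcn, Ermap, Fcgr2b, Glrx5, Nkg7, Oas2, Rad17 and Zc3h3. Further ones are in the stem cell, replication, mitosis and antioxidant lists, whose counts after it are given below. The 5 named genes called in all 16 fits that left out 1 array were Dntt and Hlf on the LSK side and S100a8, Elane and Fcgr3 on the MP side.

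**Figure D1:**
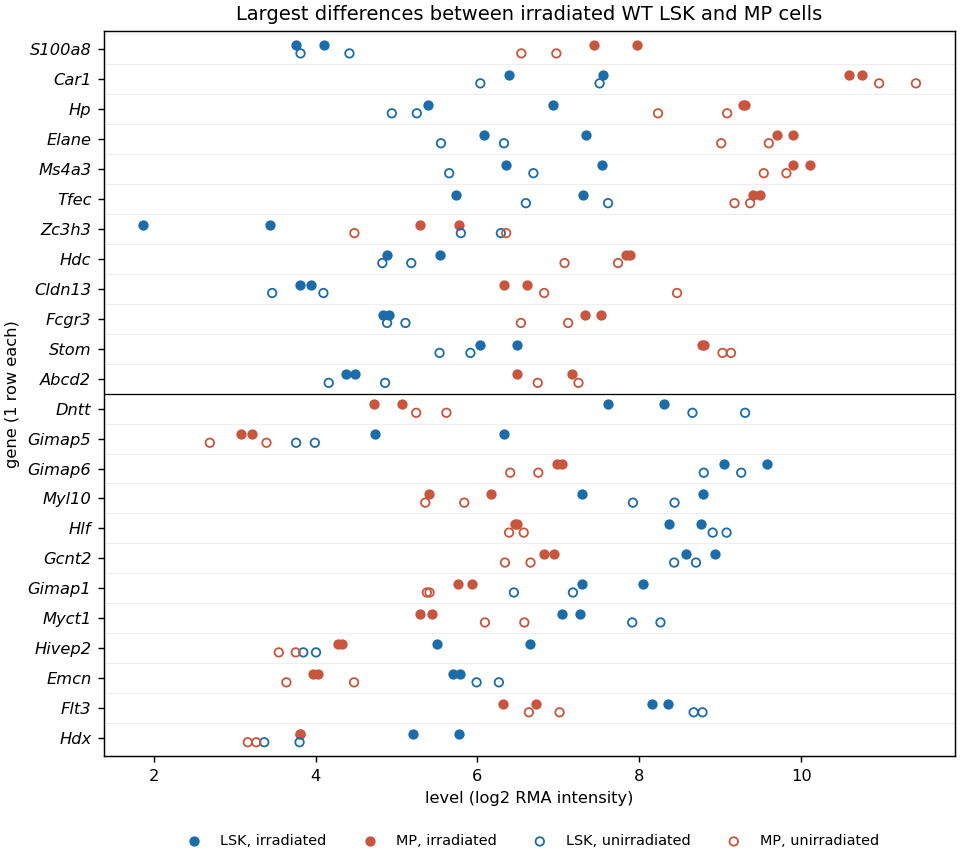
Level (log2 RMA intensity, horizontal axis) of the 12 genes with the largest called difference in each direction, 1 gene per line, on the 8 WT arrays; each point is 1 pool, filled points are irradiated and open points unirradiated, and the line across the plot separates genes higher in MP (above) from genes higher in LSK (below). For S100a8 the irradiated MP pools sit at 7.97 and 7.44 and the irradiated LSK pools at 4.11 and 3.76, while for Dntt the LSK pools sit at 7.62 and 8.31 and the MP pools at 5.06 and 4.72.

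On the LSK side, Dntt had the largest difference. It encodes terminal deoxynucleotidyl transferase, which adds nucleotides at antigen receptor gene junctions and marks lymphoid-primed progenitors. Its level was 7.62 and 8.31 in the LSK pools and 5.06 and 4.72 in the MP pools. Both LSK pools lay above both MP pools, by 3.07 ± 0.34 (SE; limma, adjusted p = 0.0025) or 8.40-fold. Flt3, the cytokine receptor of multipotent and lymphoid-primed progenitors, was at 8.16 and 8.35 in LSK and 6.72 and 6.32 in MP, again without overlap, and was 1.74 ± 0.24 higher (limma, adjusted p = 0.0062). These were the 2 members called, both higher in LSK, among 20 measured genes of lymphoid priming, whose median difference was 0.47. Of all rows, 0.575% were called higher. Il7r, the interleukin 7 receptor chain of lymphoid progenitors, was not called (0.67, adjusted p = 0.12) and lay below every array's median.

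Among 26 measured haematopoietic stem cell genes, 7 were called higher in LSK and 0 lower, with a median of 0.41. Of all rows, 0.575% were called higher. After further quantile normalization 4 of the 26 were called, namely Hlf, Meis1, Angpt1 and Erg. Hlf, a transcription factor of stem cells, was at 8.36 and 8.76 in LSK and at 6.47 and 6.49 in MP. The groups did not overlap, which was also the case for 59% of all rows, and the difference was 2.08 ± 0.23 (SE; limma, adjusted p = 0.0025) or 4.24-fold. Angpt1, the ligand of the receptor Tie2, was at 9.11 and 9.45 in LSK against 7.86 and 7.88 in MP, a difference of 1.41 ± 0.22 (adjusted p = 0.0097). Meis1, the homeodomain partner of Hox proteins, was at 8.89 and 9.23 against 7.71 and 7.72, a difference of 1.35 ± 0.28 (adjusted p = 0.031). In both genes the LSK pools lay above the MP pools. The other called members were Erg, an ETS factor needed for stem cell maintenance (1.03), Trpc6, a cation channel (0.94), Procr, the endothelial protein C receptor and a stem cell surface marker (0.92), and Robo4, a guidance receptor (0.83). Procr, Trpc6 and Robo4 were below the median of both MP arrays, a level not shown to be above background, so their differences may be understated. Of 18 measured Hox A and B genes, Hoxa9, which cooperates with Meis1, was the 1 called, at 6.26 and 6.27 in LSK against 5.50 and 5.23 in MP (0.90, adjusted p = 0.021). Of these 18 genes, 17 had a positive difference, where 13462 of all 22961 rows did. The median of the 18 was 0.27, or 0.11 after further quantile normalization, and 9 of them were below the median on all 4 arrays.

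The other large differences on the LSK side included genes of the Gimap family, small GTPases of lymphoid cells encoded in 1 cluster. Gimap6 was at 9.04 and 9.57 in LSK and at 6.98 and 7.05 in MP, a difference of 2.30 ± 0.33 (SE; limma, adjusted p = 0.0066). Gimap5 was at 4.74 and 6.33 against 3.22 and 3.08, so the LSK pools stood far apart from each other while both lay above the MP pools, which like LSK pool 1 were below their array medians (2.39 ± 0.39, adjusted p = 0.011). Of 8 Gimap rows with a symbol, a set chosen after their values were seen, Gimap1, Gimap4, Gimap5, Gimap6 and Gimap8 were called. Gimap4 was below the array median on all 4 arrays. Gimap3, Gimap7 and Gimap9 were not called, Gimap7 with LSK pools at 6.07 and 4.08. Gcnt2, a glycosyltransferase that branches poly-lactosamine chains, was higher in LSK by 1.87 (adjusted p = 0.0079), and Myct1, a Myc target of stem cells and endothelium, by 1.78 (adjusted p = 0.026). Emcn, the sialomucin endomucin of stem cells and endothelium, was at 5.79 and 5.70 in LSK and 4.03 and 3.97 in MP, below both MP array medians (1.74 ± 0.35, adjusted p = 0.026). Of the other 15 measured endothelial and stromal markers none was called in limma, 1 had an unadjusted p under 0.05, and 8 of the 16 were below the median on all 4 arrays.

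On the MP side the largest difference was that of S100a8, a calcium-binding protein of neutrophils and monocytes. It was at 4.11 and 3.76 in the LSK pools and 7.97 and 7.44 in the MP pools. The MP pools lay far above the LSK pools, and LSK was lower, with a difference of -3.77 ± 0.31 (SE; limma, adjusted p = 0.00042). Both LSK values were below their array medians, so the size may be understated. S100a8 was one of 8 called members, all lower in LSK, among 24 measured genes of the granule list, and the median of the list was -0.53. That is 33.3%, against 1.87% of all rows. The list was chosen with earlier results of these data known, so this share is a description and not a test. Besides granule proteins it holds Calr and the transcription factors Cebpe and Gfi1.

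The proteins of the azurophilic granule made up much of that group. Elane, neutrophil elastase, was at 6.08 and 7.34 in LSK and 9.71 and 9.90 in MP. The LSK pools differed from each other by over 1 log2 unit, yet the gap between the cell types was larger, -3.09 ± 0.35 (SE; limma, adjusted p = 0.0030) or 8.51-fold. Ms4a3, a four-span membrane protein of granulocyte and monocyte progenitors, was at 7.54 and 6.36 against 10.11 and 9.90 (-3.05 ± 0.36, adjusted p = 0.0035). Ctsg, cathepsin G, was at 9.06 and 8.53 in LSK and 10.90 and 10.85 in MP, so it was bright in both fractions while lower in LSK (-2.08 ± 0.27, adjusted p = 0.0062). Prtn3, proteinase 3, was also lower (-1.89, adjusted p = 0.0062), as was the serine protease gene Prss57 (-1.60, adjusted p = 0.0071). Ap3s1, which encodes a subunit of the AP-3 adaptor that sorts granule cargo, was lower, with a difference of -1.63 on its brightest row, and its other rows gave -2.11 and -1.80. Mpo, myeloperoxidase, was the brightest of the list, with means of 11.33 ± 0.11 in LSK and 11.98 ± 0.02 in MP (SD, n = 2), and was not called (-0.65, adjusted p = 0.054).

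Promoters are shown for a few genes called lower in LSK, chosen from those that hold the letters searched, as the stretch from 250 bases before to 50 after the gene's start, from RefSeq's GRCm38.p6. The letters GAGGAA, a core bound by ETS factors such as the myeloid regulator PU.1, were searched on both strands and are in capitals, so that TTCCTC marks the opposite strand. They stood in 10 of the 22 promoters of the granule genes, 45.5%, against 28.3% of the 32851 promoters of that length searched. A match is a description of letters and not a site. The granule genes shown are Elane at chr10:79886062-79886361 (plus strand, match at -85 from the start), Prtn3 at chr10:79879417-79879716 (plus strand, -95) and S100a8 at chr3:90668821-90669120 (plus strand, -170 and -36). Of the 8 called granule genes 6 had a promoter in the table, and 5 of these held the letters, while Nkg7 did not. For erythroid genes the letters AGATAA and TGATAA, bound by GATA factors, were searched on both strands, and stood in 13 of 29 erythroid promoters, 44.8%, against 18.6% of all. Ermap at chr4:119189946-119190245 (minus strand) is shown with its match at -67 in capitals. Tfrc, the other called erythroid gene with a promoter in the table, held no match.
Elane: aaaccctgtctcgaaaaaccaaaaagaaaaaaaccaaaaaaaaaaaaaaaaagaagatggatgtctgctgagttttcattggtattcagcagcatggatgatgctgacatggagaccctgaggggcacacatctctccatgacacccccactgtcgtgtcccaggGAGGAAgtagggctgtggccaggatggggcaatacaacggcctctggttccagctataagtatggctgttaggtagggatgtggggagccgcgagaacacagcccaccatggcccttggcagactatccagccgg
Prtn3: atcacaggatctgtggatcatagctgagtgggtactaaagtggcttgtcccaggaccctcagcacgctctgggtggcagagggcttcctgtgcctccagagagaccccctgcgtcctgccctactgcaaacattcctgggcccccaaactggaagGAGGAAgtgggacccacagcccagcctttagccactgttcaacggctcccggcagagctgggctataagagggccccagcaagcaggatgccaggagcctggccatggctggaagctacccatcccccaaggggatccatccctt
S100a8: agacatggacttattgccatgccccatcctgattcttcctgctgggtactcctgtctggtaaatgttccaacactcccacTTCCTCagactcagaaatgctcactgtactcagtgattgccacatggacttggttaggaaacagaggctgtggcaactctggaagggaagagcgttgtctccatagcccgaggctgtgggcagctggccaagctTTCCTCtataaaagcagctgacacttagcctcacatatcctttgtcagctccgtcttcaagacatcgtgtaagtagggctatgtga
Ermap: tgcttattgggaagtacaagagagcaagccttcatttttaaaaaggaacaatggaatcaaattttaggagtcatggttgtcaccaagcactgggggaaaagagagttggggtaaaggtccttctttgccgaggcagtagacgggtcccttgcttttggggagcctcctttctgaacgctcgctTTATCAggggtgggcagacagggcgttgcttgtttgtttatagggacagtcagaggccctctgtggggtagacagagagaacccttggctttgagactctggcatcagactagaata

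Of 25 measured genes of granulocyte and monocyte regulators and receptors, 5 were called lower in LSK and 0 higher, and 20 were not called. Their median was -0.53, and 1.87% of all rows were called lower. This list too was chosen with earlier results of these data known. Fcgr3, a low-affinity receptor for immunoglobulin G, was at 4.91 and 4.83 in LSK and 7.53 and 7.33 in MP. The pools of each fraction agreed closely, and the difference was -2.56 ± 0.25 (SE; limma, adjusted p = 0.0011) or 5.89-fold. The other calls were F13a1, a coagulation factor subunit of monocytes (-2.38), Ccr2, the chemokine receptor of inflammatory monocytes (-2.02), Clec12a, an inhibitory lectin (-1.81), and Fcgr2b, the inhibitory immunoglobulin G receptor (-1.19). None of the transcription factors of that list, Cebpa, Cebpb, Cebpe, Spi1, Irf8 and Gfi1 among them, was called. Among 37 cytokine and growth factor receptors, Ifngr1, the ligand-binding chain of the interferon-gamma receptor, was at 7.72 and 7.31 in LSK and 9.26 and 9.27 in MP (-1.75 ± 0.28, adjusted p = 0.0096), and Flt3 was the only other call.

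Further genes with large differences on the MP side came from several lineages. Hp, the haemoglobin-binding plasma protein haptoglobin, was at 6.94 and 5.39 in LSK and 9.31 and 9.28 in MP, with the LSK pools well apart from each other (-3.13 ± 0.45, adjusted p = 0.0066). Tfec, a transcription factor of the MITF family, was at 5.74 and 7.30 against 9.40 and 9.50 (-2.93 ± 0.41, adjusted p = 0.0062). Hdc, histidine decarboxylase, which makes histamine, was at 4.89 and 5.53 against 7.84 and 7.89 (-2.66 ± 0.36, adjusted p = 0.0062). For each of these genes the MP pools agreed closely and both lay above the LSK pools. Ms4a2, the beta chain of the high-affinity immunoglobulin E receptor, was lower in LSK (-1.64, adjusted p = 0.013), and Cma1, a mast cell chymase, was higher by 0.75 (adjusted p = 0.029), at levels below every array's median. These 3 were the calls among 14 mast cell and basophil genes. As a whole that list leaned towards LSK, with 9 of the 14 differences positive, 5 negative and a median of 0.29. Stom, a membrane protein first described in erythrocytes, was lower in LSK (-2.53, adjusted p = 0.0085), as was Abcd2, a peroxisomal fatty acid transporter (-2.40, adjusted p = 0.014). The zinc finger gene Zc3h3 was called on 1 row (-2.88 ± 0.67, adjusted p = 0.047) with LSK pools at 1.87 and 3.44, while its other row gave 0.04.

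Erythroid genes were among the genes lower in LSK, with a smaller median difference than in unirradiated cells. Car1, carbonic anhydrase 1 of the erythroid lineage, was at 6.38 and 7.55 in LSK and 10.59 and 10.76 in MP. It was the second largest difference of all named genes, -3.71 ± 0.49 (SE; limma, adjusted p = 0.0062) or 13.1-fold. Cldn13, a claudin of mouse erythroid cells, was at 3.94 and 3.81 against 6.33 and 6.61 (-2.60 ± 0.48, adjusted p = 0.019), with both LSK values below the array medians. Ermap, an erythroblast membrane protein, was at 4.63 and 5.62 against 6.84 and 6.90 (-1.75, adjusted p = 0.040), and Tfrc, the transferrin receptor that takes up iron, at 6.35 and 6.03 against 7.67 and 7.65 (-1.47, adjusted p = 0.0079). These 4 were called lower in LSK among 26 measured erythroid genes, with none higher and a median of -0.32. Of all rows, 1.87% were called lower. In unirradiated cells 12 of the same 26 were called lower, with a median of -1.01, where the background of lower calls was 3.93%. The mean level over the 26 genes was 6.46 and 7.07 in the unirradiated MP pools and 5.84 and 5.91 in the irradiated ones, against 5.35 and 5.47 in unirradiated and 5.28 and 5.32 in irradiated LSK pools. The irradiated MP pools were thus nearer to the LSK pools than the unirradiated MP pools were, and the unirradiated MP pools were also further apart from each other.

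**Figure D2:**
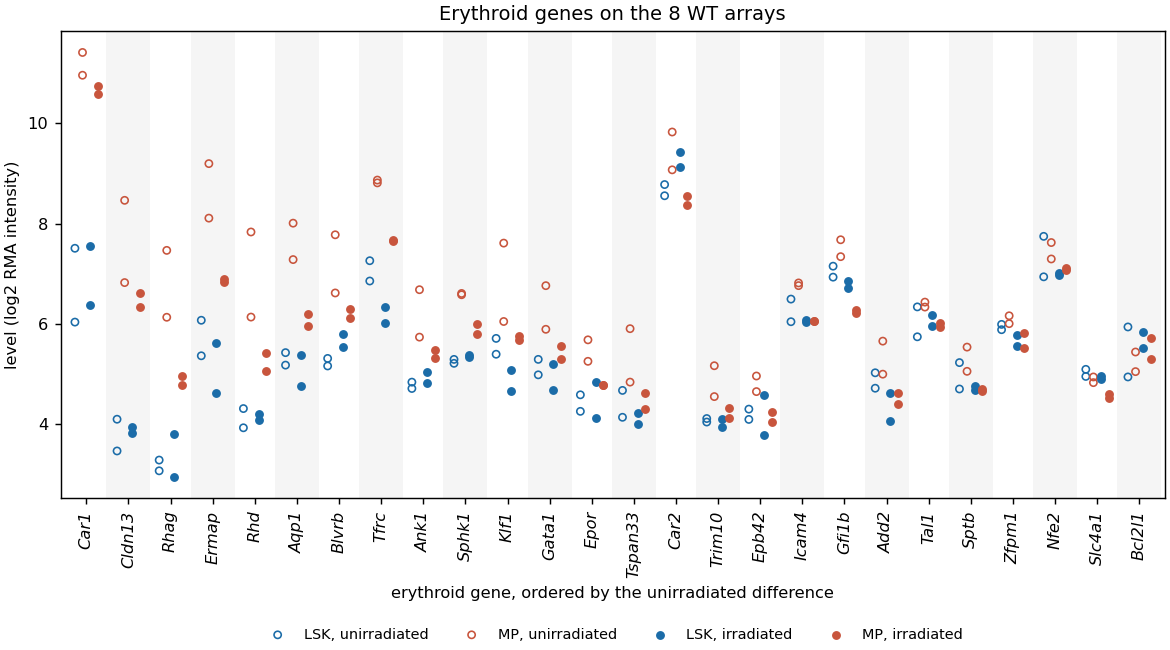
Level (log2 RMA intensity, vertical axis) of the 26 measured erythroid genes on the 8 WT arrays, ordered along the horizontal axis by their unirradiated LSK minus MP difference; each point is 1 pool, open before and filled after irradiation, blue for LSK and red for MP. For Rhag the MP pools sit at 6.13 and 7.47 before and at 4.96 and 4.78 after irradiation, while the LSK pools stay between 2.95 and 3.79.

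The change in the erythroid difference was not called for any single gene. The difference of the differences had a median of 0.68 over the 26 genes, positive for 25 of them, and 9 had an unadjusted p under 0.05 where 5.54% of all rows did, but none passed in limma after adjustment. Rhag, the Rh-associated glycoprotein, had a difference of -3.62 before and -1.50 after irradiation (difference 2.12 ± 0.64, adjusted p = 0.74). Car2, carbonic anhydrase 2, was at 9.13 and 9.44 in irradiated LSK and 8.37 and 8.55 in irradiated MP, whereas in unirradiated cells the MP pools were the higher ones (9.07 and 9.83, against 8.56 and 8.78). Neither of the Car2 differences was called. In irradiated Parp-2-/- cells 20 of the 26 genes had a negative difference and 11 were called lower in LSK (background 3.19%), with a median of -0.72. Of 19 genes of haem synthesis and iron handling, Alas1, the enzyme of the first step of haem synthesis outside the erythroid lineage, was called lower in LSK (6.34 and 6.60 against 8.23 and 8.15, adjusted p = 0.016), as was Glrx5, a mitochondrial glutaredoxin of iron-sulphur cluster assembly (-1.19, adjusted p = 0.028). None of 17 megakaryocyte and platelet genes was called in limma (1 at an unadjusted p under 0.05), and their median was 0.04.

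Markers of mature cells were read against all tested rows, of which 40.6% were below the array median on all 4 arrays. Of 19 T and NK cell genes 13 were below the array median on all 4 arrays, of 15 B lymphocyte genes 8, of 16 macrophage genes 9, of 16 dendritic cell genes 9 and of 14 mature neutrophil genes 5. The mean level of the T and NK cell list was 4.54 and 4.45 in LSK and 4.34 and 4.29 in MP, and that of the B lymphocyte list 4.76 and 4.64 against 4.48 and 4.49. Cd4, the T helper coreceptor, was called higher in LSK (0.77, adjusted p = 0.044) at 5.15 and 4.72 against 4.03 and 4.30, and Cd22, an inhibitory B cell receptor, likewise (0.70, adjusted p = 0.028). Nkg7, a granule protein of cytotoxic cells that is also in the granule list, was lower in LSK (-1.44, adjusted p = 0.031). The mean level of the mature neutrophil list was 4.64 and 4.39 in LSK and 4.89 and 4.74 in MP. Among its 14 genes S100a8 was the 1 called, and Ly6g, the defining neutrophil marker, lay between 2.79 and 3.42 on the 4 arrays. The part of such cells in the results was not tested.

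**Figure D3:**
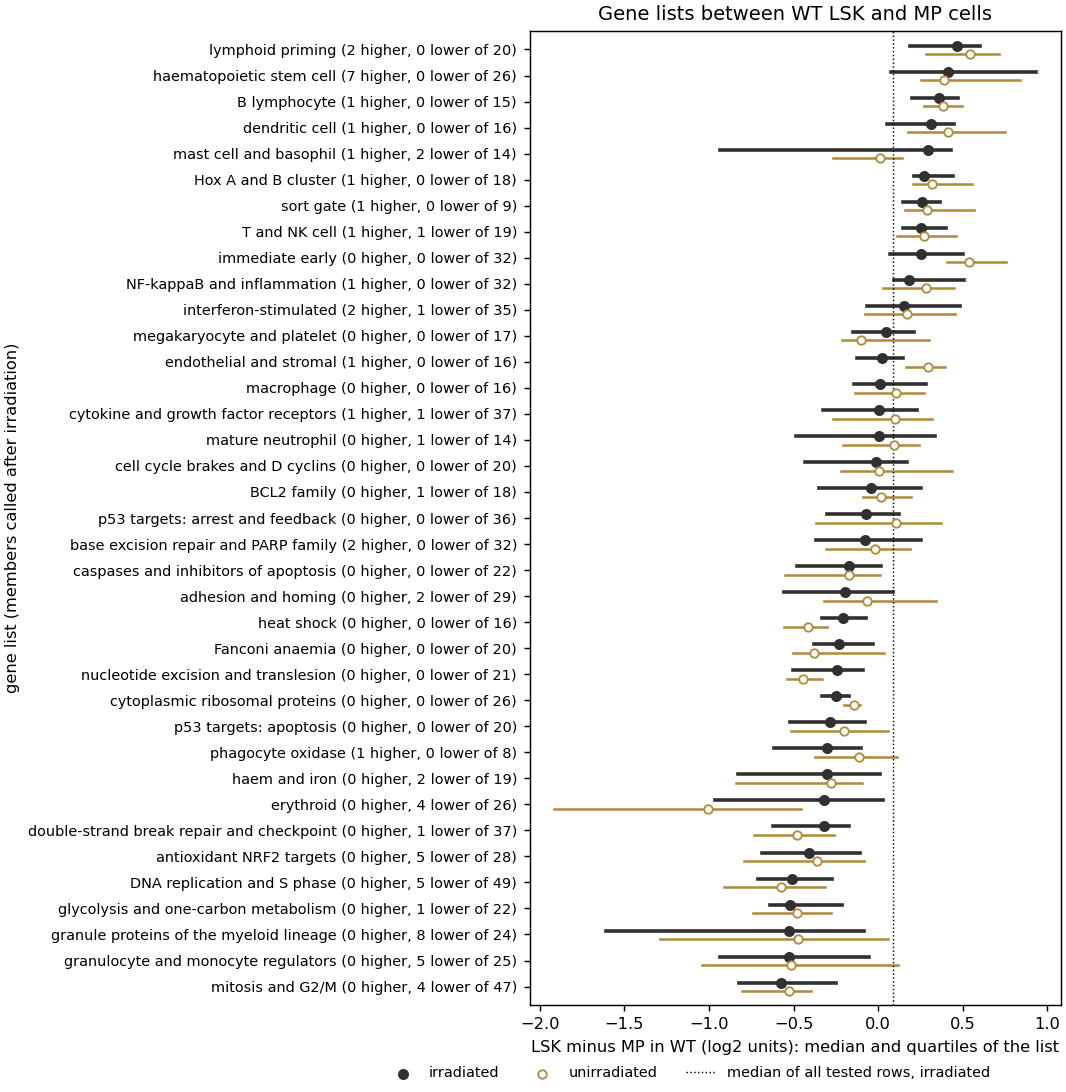
Median (point) and quartiles (bar) of the LSK minus MP difference (log2 units, horizontal axis) in each of 37 gene lists, filled for irradiated and open for unirradiated WT cells; each label gives the members called after irradiation, and the dotted line is the median of all tested rows, 0.09. Lymphoid priming and stem cell genes have the highest medians (0.47 and 0.41) and mitosis and granulocyte genes the lowest (-0.58 and -0.53).

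No p53 target gene was called between the 2 irradiated fractions. Of 36 measured p53 targets for arrest and feedback none passed in limma, nor did any of 20 targets for apoptosis. At an unadjusted p under 0.05 there were 3 of the 36 and 5 of the 20, where 22.9% of all rows were. The medians were -0.07 and -0.29, or 0.10 and -0.12 after further quantile normalization. Both fractions had responded: of the 36 genes 15 were called higher after irradiation in LSK and 17 in MP, and of the 20 genes 9 in each. Of all rows, 1.18% were called higher in LSK and 0.571% in MP. Ei24 is in both lists. The lists were chosen with earlier results of these data known, so these shares are a description and not a test. The mean level was higher after irradiation for 26 of the 36 and 16 of the 20 genes in LSK, and for 31 and 16 in MP. Sesn3, a sestrin, was called lower after irradiation in LSK (from 6.75 to 5.83, adjusted p = 0.048), where 0.623% of all rows were called lower. Mdm2, the ubiquitin ligase that degrades p53, was at 9.96 and 10.07 in LSK and 9.99 and 10.28 in MP. The pools were mixed together, and the 95% interval of the difference ran from -0.45 to 0.20. Ccng1, cyclin G1, was at 10.63 and 10.85 against 10.70 and 10.65, with an interval from -0.44 to 0.56. Pmaip1, the BH3-only protein Noxa, was at 7.24 and 7.25 against 7.32 and 7.54, with an interval from -0.65 to 0.27. The widest gaps were those of Fas, the death receptor, at 6.65 ± 0.50 in LSK and 7.55 ± 0.55 in MP (SD, n = 2; -0.90, adjusted p = 0.17), of Triap1, an inhibitor of apoptosome formation, at 6.89 and 7.29 against 7.88 and 8.04 (-0.88, adjusted p = 0.080), and, in the other direction, of Sesn1, a sestrin that restrains mTORC1, at 7.92 and 8.22 against 7.67 and 7.43 (0.53, adjusted p = 0.17). These 3 genes were picked for their size, and none passed the threshold.

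**Figure D4:**
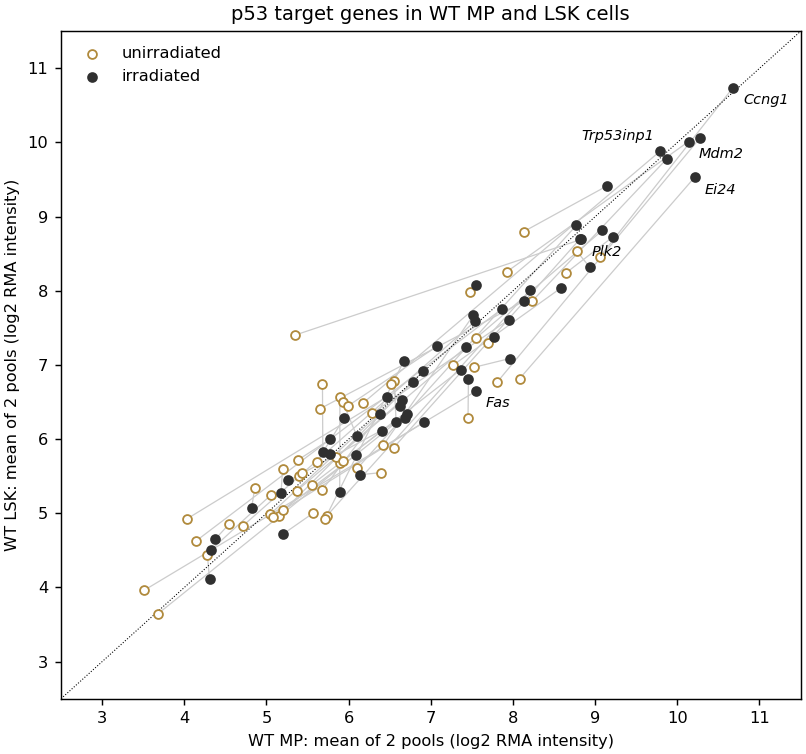
Mean level of the 2 pools (log2 RMA intensity) in WT LSK (vertical axis) against WT MP (horizontal axis) for the measured p53 targets; open points are unirradiated, filled points irradiated, grey lines join the points of 1 gene and the dotted line marks equal levels. After irradiation 26 of the 36 arrest and feedback targets and 16 of the 20 apoptosis targets lie higher on the LSK axis, Ccng1 reaching 10.74 in LSK and 10.68 in MP, and Sesn3 lies lower, at 5.83 in LSK.

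Of the 18 BCL2 family genes, Bak1, a pore-forming effector of mitochondrial apoptosis, was the 1 called. It was at 6.72 and 6.94 in LSK and 7.68 and 7.85 in MP, without overlap, a difference of -0.94 ± 0.19 (SE; limma, adjusted p = 0.028). Before irradiation its pools were at 7.61 and 7.40 against 7.91 and 7.88, which was not called. The difference of the differences did not pass for Bak1. The survival genes Bcl2 and Mcl1 differed by -0.07 and -0.03, with adjusted p of 0.90 and 0.94. None of 22 caspases, their activators and inhibitors was called in limma, with 7 at an unadjusted p under 0.05, where 22.9% of all rows were.

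Of 49 replication and S phase genes, 46 had a negative difference and 5 were called lower in LSK (median -0.51). Of 47 mitosis and G2/M genes 43 were negative and 4 were called lower (median -0.58). Of all 22961 rows 13462 had a positive difference and 1.87% were called lower, while the fifth with the highest levels had a median of -0.30. Gins1, a subunit of the replicative helicase, was at 6.46 and 6.57 in LSK and 8.21 and 8.06 in MP, the largest of them at -1.62 ± 0.29 (SE; limma, adjusted p = 0.016). The clamp loader subunit Rfc4 (-1.36), the primase subunit Prim2 (-1.20), the repressor E2f8 (-0.82) and the helicase cofactor Cdc45 (-0.78) were the other replication genes called. The mitotic calls were Kpna2, an importin (-1.53, with other rows at -1.12 and -0.55), Cdc25c, the phosphatase that activates CDK1 (-1.33), and the kinesins Kif20b (-0.89) and Kif11 (-0.80). After further quantile normalization the medians were -0.31 and -0.42, with 39 of the 49 and 38 of the 47 negative, and 0 of the 49 and 1 of the 47 were called. Of 37 double-strand break repair and checkpoint genes Rad17, the loader of the 9-1-1 checkpoint clamp, was called lower in LSK (5.04 and 5.32 against 6.11 and 6.17, adjusted p = 0.032). None of 20 Fanconi anaemia and 21 nucleotide excision and translesion genes was called in limma. At an unadjusted p under 0.05 there were 2 and 4 of them, where 22.9% of all rows were. All 26 measured cytoplasmic ribosomal protein genes had a negative difference, with a median of -0.25. None of them was called in limma, 6 had an unadjusted p under 0.05, and 22 of the 26 stayed negative after further quantile normalization.

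In the PARP family, Parp12, an interferon-induced member, was at 6.17 and 6.62 in LSK and 5.41 and 5.34 in MP (1.02 ± 0.21, adjusted p = 0.030), and Parp3, a mono-ADP-ribosyltransferase of break repair, at 6.40 and 6.26 against 5.81 and 5.66 (0.60 ± 0.14, adjusted p = 0.047). They were the only calls among 32 genes of base excision repair and the PARP family. Parp2, the gene deleted in the other genotype, was at 7.83 and 7.96 in LSK and 8.40 and 8.36 in MP (-0.48 ± 0.26, adjusted p = 0.27), and Parp1 at 8.20 and 8.18 against 8.45 and 8.47 (-0.27 ± 0.15, adjusted p = 0.29). In both the LSK pools were the lower ones, but neither difference passed.

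Of 28 genes of antioxidant defence 24 had a negative difference and 5 were called lower in LSK, with a median of -0.41. Of all 22961 rows 13462 had a positive difference and 1.87% were called lower. The mean level of the list was 7.23 and 7.30 in LSK and 7.81 and 7.77 in MP. The fifth of all rows with the highest levels had a median of -0.30. Gstm1, a glutathione transferase, was at 7.37 and 8.47 in LSK and 9.79 and 9.96 in MP (-1.96, adjusted p = 0.028). Gsr, glutathione reductase (-1.62), Pgd, an NADPH-producing enzyme of the pentose phosphate pathway (-1.36), Prdx1, a peroxiredoxin (-1.18), and Gpx1, glutathione peroxidase 1 (-0.59), were the other calls. Another row of Prdx1 gave -0.40 and was not called (limma, adjusted p = 0.32). Gstm1 had been -0.71 before irradiation and was not called there. After further quantile normalization 1 of the 28 genes was called, with a median of -0.40. Nox1, a NADPH oxidase catalytic subunit, went the other way (1.24 ± 0.17; limma, adjusted p = 0.0062). It was at 5.26 and 4.72 in LSK and 3.73 and 3.77 in MP, below both MP array medians. Before irradiation its pools had been between 3.40 and 3.69 in both fractions. It was the 1 call among 8 phagocyte oxidase genes, of which 6 had a negative difference, with a median of -0.30. For Gstm1 and Nox1 the difference of the differences did not pass.

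Inflammatory and interferon genes gave calls in both directions. Mx1, an interferon-induced GTPase with antiviral activity, was at 5.76 and 5.97 in LSK and 6.68 and 6.85 in MP, a difference of -0.89 ± 0.16 (SE; limma, adjusted p = 0.017). In unirradiated cells it had been at 4.19 and 4.03 in LSK and 4.15 and 4.03 in MP, so the pools that had not differed before stood apart after irradiation, although the difference of the differences did not pass (-0.91, adjusted p = 0.60). Iigp1, an interferon-gamma-induced GTPase, was at 5.21 and 5.83 in LSK and 4.17 and 3.87 in MP (1.50, adjusted p = 0.012), and Oas2, an oligoadenylate synthetase, was also higher in LSK (0.82, adjusted p = 0.037). These 3 were called among 35 interferon-stimulated genes. Ccl5, the chemokine RANTES, was the 1 called of 32 NF-kappaB and inflammation genes, at 6.60 and 7.21 in LSK against 5.95 and 5.90 in MP (0.98, adjusted p = 0.042). None of 32 immediate early genes was called in limma after irradiation, with 5 at an unadjusted p under 0.05, where 22.9% of all rows were. Nr4a1, an immediate early orphan nuclear receptor, had the largest change of that list: unirradiated pools were at 9.39 and 8.39 in LSK and 6.13 and 5.29 in MP, and irradiated pools at 4.75 and 5.16 and at 4.86 and 4.76. A difference of 3.18 before irradiation stood at 0.14 after it (difference of the differences -3.04 ± 0.70, unadjusted p = 0.00086, adjusted p = 0.60).

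Most of the called differences had the same sign in unirradiated cells, although fewer than 1 in 2 were called there. The unirradiated comparison called 1200 rows, 5.23% of those tested. It shares no arrays with the irradiated one, but both were tested with the same shared spread of each row. Calls in both states are therefore not an independent repeat. Of the 562 rows called after irradiation, 537 had the same sign before it, 95.6%, against 77.7% of all rows. In both states 259 rows were called in the same direction, 46.1% of the 562, 21.6% of the 1200 and 1.13% of all rows (43 higher and 216 lower in LSK), and 0 in opposite directions. Over rows, which are not independent, the 2 sets of differences had a Pearson r of 0.64. Among the named genes Dntt (3.55 before and 3.07 after), Hlf (2.51 and 2.08), Gimap6 (2.45 and 2.30), Car1 (-4.42 and -3.71), Ms4a3 (-3.51 and -3.05), Elane (-3.37 and -3.09) and S100a8 (-2.64 and -3.77) stood in both states. The 303 rows called only after irradiation kept the sign in 278 cases, and 142 of them had an unadjusted p under 0.05 before. These 303 rows had a median size of 0.98 after irradiation and 0.42 before it, and the 941 called only before irradiation had 0.995 before and 0.468 after, so in each set the difference was smaller in the state that did not choose the rows.

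**Figure D5:**
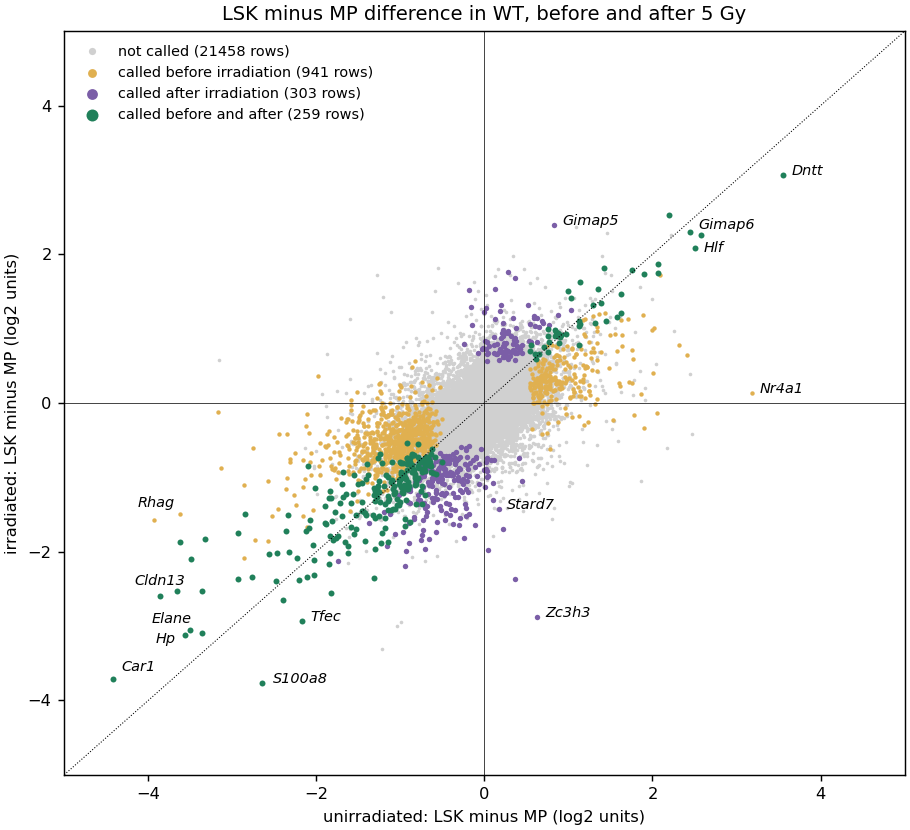
LSK minus MP difference in irradiated (vertical axis) against unirradiated (horizontal axis) WT cells, in log2 units, 1 point per tested row, coloured by the states in which the row was called; the dotted line marks equal differences. Green points, the 259 rows called in both states, lie in the lower left and upper right, while Nr4a1 lies on the right near 0 after irradiation.

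Whether a difference between the fractions changed with irradiation was tested directly as cell type by irradiation over the 8 WT arrays. No row was called in limma (0%), with 1272 rows at an unadjusted p under 0.05 and a smallest adjusted p of 0.42. The median standard error of this test was 0.29, against 0.21 for a single difference. The 5 smallest p-values, none of which passed, belonged to Ppp1r3b, Stard7, Bdh2, Slc50a1 and Lyar. Stard7, a lipid transfer protein of mitochondria, was at 8.28 and 8.03 in LSK and 8.16 and 7.81 in MP before irradiation and at 7.27 and 6.90 against 8.58 and 8.43 after it, with a called difference after irradiation (-1.42 ± 0.19, adjusted p = 0.0062) and a difference of the differences of -1.59 (adjusted p = 0.42). Lyar, a nucleolar protein of proliferating cells, ran the other way, from -1.44 before to -0.27 after.

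The irradiated Parp-2-/- cells gave a second pair of fractions with no array in common, tested with the same shared spread of each row. There 935 rows were called, 4.07%, and 218 of them were also called in the same direction in irradiated WT cells, 38.8% of the 562 and 23.3% of the 935. In WT before irradiation, WT after it and irradiated Parp-2-/- cells, 145 rows were called in 1 direction, 26 higher and 119 lower in LSK. Hlf (2.56), Dntt (3.37) and Gimap6 (3.13) were higher in Parp-2-/- LSK cells, and Car1 (-3.91), Ms4a3 (-2.84) and Elane (-1.71) lower. S100a8 was lower, with a difference of -1.87 there. Tfec, at -0.74 with an adjusted p of 0.32 in Parp-2-/- cells, was not called. The test of cell type by genotype after irradiation called 1 row, 0.00436% of those tested, that of Ccnb1ip1, an E3 ligase of meiotic crossover formation. In WT it was at 3.45 and 3.89 in LSK and 3.31 and 3.47 in MP, below every array's median, and in Parp-2-/- it was at 4.49 and 4.51 in LSK and 6.93 and 6.91 in MP. The differences were 0.27 and -2.42, which differed by 2.69 ± 0.27 (SE; limma, adjusted p = 0.0078). The call was lost in the fit to the 8 irradiated arrays alone and after further quantile normalization.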

How the data were processed

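RNA of 16 pools was measured on Affymetrix Mouse Gene 1.0 ST arrays, 2 pools in each of 8 groups. The deposited values are log2 intensities that the authors made with RMA; per the submitters' processing notes, RMA, limma, affy 2.10 and R 2.15 were used. The sources used here give neither the set of arrays normalized together nor the logarithm's base; base 2 is taken from RMA's usual output. Of 34760 rows, 21640 carry 1 gene symbol, 1321 several and 11799 none; the 22961 with a symbol were tested, and none was named from a row with several. limma 3.58.1 (lmFit and eBayes, R 4.3.3) was fitted to all 16 arrays with 8 group means and no covariate (8 residual degrees of freedom), and checked on simulated data. A gene with several rows is represented by its brightest. The 37 lists held 884 genes, 807 measured, 6 through an older symbol. The named genes are the 12 largest called differences in each direction, up to 6 called and 3 bright uncalled members of each list, the genes largest in both WT states, and the smallest p-values of the tests of differences. The members and lists were chosen with earlier results of these data known. The alternatives were further quantile normalization, fewer arrays, a filter on dim rows, pool number as a block, and leaving out each array. The number of arrays limits the precision.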

Additional observations from a re-analysis of the deposited data

Results flagged for a closer look

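For Ccnb1ip1, the LSK minus MP difference after irradiation differed between the genotypes by 2.69 (limma, adjusted p = 0.0078), being 0.27 in WT and -2.42 in Parp-2-/- cells. It was marked because the test of that difference passed. Both WT groups were below their array medians and the Parp-2-/- MP pools, at 6.93 and 6.91, stood above the Parp-2-/- LSK pools at 4.49 and 4.51. Unirradiated Parp-2-/- cells showed a like order, with MP pools at 6.83 and 7.38 and LSK pools at 3.96 and 4.02.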

How the results depend on the processing

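The counts of called rows depended on the fit, while none of the 77 named differences that were called changed sign in any setting run; of the 193 named differences not called, 54 did in at least 1. For irradiated LSK against MP (562 rows), further quantile normalization gave 195 calls, of which 177 were among the 562, the 8 WT arrays alone 255, the 8 irradiated arrays alone 276 and the 4 arrays alone 68. Leaving out 1 array gave 10 to 2240. For unirradiated cells (1200) the counts were 726 (274 higher and 452 lower, 37.7% higher against 24.8%), 752 in the 8 WT arrays and 51 in the 4 arrays, with 186 to 1614 on leaving out 1 array. For irradiated Parp-2-/- cells (935) they were 534 after further quantile normalization and 97 in the 4 arrays, with 123 to 1325. The rows called in both WT states (259) were 101 after further quantile normalization and 133 in the 8 WT arrays, with 8 to 375. Cell type by irradiation gave 0 to 9 calls on leaving out 1 array. Cell type by genotype gave 0 in the 8 irradiated arrays and 0 after further quantile normalization, with 0 to 17. The cause was not tested, beyond the fewer arrays in a fit.

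Of the 77 named genes called, 48 were called after further quantile normalization, 47 in the 8 WT arrays, 45 in the 8 irradiated arrays, 22 in the 4 arrays and 69 with the block. Without LSK pool 1 there were 40, without LSK pool 2 there were 66, and without MP pool 1 or MP pool 2 there were 5 and 6. The deviations of pools with the same number had correlations over rows from -0.17 to 0.23 (28 pairs of groups, with 2 over 0.1). With 2 pools a group, this cannot tell whether pools of the same number shared mice, a sort or a batch. Pool number as a replicate block gave 483 calls. With 2 pools a group and no measure of background, small differences and the size of those at low levels are poorly determined.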
